A study of Homo sapiens with 8 samples.

Results

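Kinesins are motor proteins that use ATP to move along microtubules or to take them apart. The members described here are the 35 genes, of 54628 in the count table, whose symbol begins with KIF or KIFC followed by a number and an optional letter and whose counts summed to at least 10 over 8 libraries. Of 42 symbols of that form, 7 fell below the minimum, and 4 of those had no count in any library. By textbook role 13 members are mitotic kinesins, 13 are transport kinesins and 9 are neither or of mixed role. The cells were IMR90-hTERT, a line of human lung fibroblasts kept dividing by telomerase, all carrying a vector (pInducer20) from which doxycycline induces Flag-tagged YAP5SA, a constitutively active form of the coactivator YAP. The 4 groups of 2 libraries each were senescent cells with doxycycline, senescent cells without it, proliferating cells with doxycycline and proliferating cells without it. Senescence was induced with bleomycin, a DNA-breaking drug, at 10 ug/ml for 24 hours, and RNA was taken 9 days after exposure. Doxycycline was given at 1 ug/ml for 11 days, and all cells grew in 3% oxygen and 15% serum. If doxycycline ran until RNA was taken, it began before bleomycin. The effect of doxycycline in senescent cells would then be that of induction from before senescence, not of induction in cells already senescent. No group received doxycycline without carrying the transgene, so the drug and YAP5SA were compared together. Nothing in the labels says that replicates came from separate cultures or whether the line is 1 clone, and p-values here measure the spread between these libraries, which may be technical.

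Mitotic kinesins build the spindle, move and align chromosomes and close the cytokinetic furrow, and their genes are switched on late in the cell cycle. That timing is known to run through a promoter element called the CHR, often paired with CCAAT boxes, at which the DREAM complex represses in resting cells and B-MYB and FOXM1 complexes activate in dividing ones. Transport kinesins carry vesicles, organelles, mitochondria and ciliary cargo, mostly toward microtubule plus ends and in cells of any cycle state, through light chains and adaptor proteins.

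Total counts per library ran from 33627708 to 39692162. YAP1 reads, which sum the endogenous gene and the transgene, stood at 291 and 287 CPM (counts scaled to 1e6 per library) in senescent cells with doxycycline, 190 and 223 in senescent cells without it, 190 and 238 in proliferating cells with it and 198 and 195 in proliferating cells without it. YAP1 rose with doxycycline in senescent cells (log2 change 0.48, adjusted p = 0.0014 by edgeR's quasi-likelihood test) and did not pass in proliferating cells (log2 change 0.12, adjusted p = 0.431). All 9 fibroblast markers were at 1 CPM or more in every group. Their summed level was 12579 to 15028 CPM in senescent cells with doxycycline, 26081 to 27127 in senescent cells without it, 18675 to 18953 in proliferating cells with it and 26776 to 26973 in proliferating cells without it. COL1A1 and COL1A2 carried much of that sum, and the markers did not move as 1: COL1A1 was at 3249 and 4281 CPM in senescent cells with doxycycline, against 11304 and 11735 without it, while LUM was at 210 and 195 CPM in those with doxycycline, against 55.3 and 55.8 in those without it, and DCN, PDGFRA and VIM were also higher with doxycycline in senescent cells. Summed epithelial markers were low but higher with doxycycline in both states. They were at 1.96 to 2.52 CPM in senescent cells with doxycycline, 0.243 to 0.252 without it, 0.647 to 0.922 in proliferating cells with it and 0.0244 to 0.0501 without it. In senescent cells CDH1 was at a mean of 1.09 CPM with doxycycline and 0.144 without it, and KRT14 at 1.02 and 0.0152. Leukocyte markers summed to at most 0.732 CPM. Of 5 endothelial markers 1 or 2 reached 1 CPM, with sums of 97.1 to 107 CPM in senescent cells with doxycycline, 135 to 155 without it, 45.8 to 50.7 in proliferating cells with it and 69.1 to 70.6 without it. TEK made up nearly all of these sums, at 96 and 106 CPM in senescent cells with doxycycline and 134 and 154 without it. PECAM1, CDH5 and KDR were at most 0.112 CPM in any library, and VWF at most 1.31. The part of these markers in the kinesin results was not tested.

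The promoters are shown first because the mitotic and transport classes differ in the letters found there. RefSeq promoter windows (GRCh38.p14, from 250 bases before to 50 after each start) were searched on both strands for the CHR letters TTTGAA or TTCGAA and for CCAAT. In the stretches below the capitals mark those matches, which read TTCAAA or ATTGG where they lie on the other strand. The bases -120 to -1 are given for KIF11, the spindle motor (chr10:92593010-92593129, plus strand), as a mitotic example. The same stretch is given for KIF5B, the transport kinesin highest per kilobase of exon (chr10:32056426-32056545, minus strand), and for KIF17, the transport kinesin that moved most (chr1:20718008-20718127, minus strand).
KIF11: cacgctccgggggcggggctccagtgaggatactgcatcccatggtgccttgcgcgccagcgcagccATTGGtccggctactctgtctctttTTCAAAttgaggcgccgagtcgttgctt
KIF5B: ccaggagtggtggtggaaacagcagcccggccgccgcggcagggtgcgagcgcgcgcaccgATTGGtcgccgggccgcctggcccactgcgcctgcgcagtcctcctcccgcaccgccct
KIF17: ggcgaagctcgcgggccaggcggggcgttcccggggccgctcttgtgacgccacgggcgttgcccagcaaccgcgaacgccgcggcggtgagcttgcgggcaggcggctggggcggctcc
KIF11 held a CCAAT match and a CHR match, KIF5B a CCAAT match, and KIF17 neither in these bases.

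The CHR match is shown in 30 bases for further mitotic genes, to let the sites be compared. They are KIF15 (chr3:44761747-44761776, plus strand), KIF18A (chr11:28108149-28108178, minus strand), KIF22 (chr16:29790712-29790741, plus strand) and KIF23 (chr15:69414282-69414311, plus strand). KIF4A (chrX:70290058-70290087, plus strand) and KIF4B (chr5:155013746-155013775, plus strand) are near-identical genes. KIF24 (chr9:34329250-34329279, minus strand) and the far match of KIF5B (chr10:32056548-32056577, minus strand) are the only matches outside the mitotic class.
KIF15: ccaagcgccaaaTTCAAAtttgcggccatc
KIF18A: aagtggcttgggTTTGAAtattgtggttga
KIF22: ggcaccggggaaTTCGAAtgggagaggcgg
KIF23: ctgATTGGcccgTTTGAAatgcgccaggcg
KIF4A: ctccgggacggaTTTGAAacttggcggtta
KIF4B: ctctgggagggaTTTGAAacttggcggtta
KIF24: acagcgcgggcgTTCGAActggcgcttggc
KIF5B: agtgcagtaaaaTTTGAAtctgcgaccccg

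A CHR match lay in 12 of the 14 windows of the mitotic class (85.7%), covering 11 of 13 genes and leaving out KIF20A and KIF2C. It lay in 1 of the 11 windows of the transport class (9.09%), that of KIF5B at position -140 counted from 0 at the first transcribed base, and in 1 of 7 windows of the other kinesins, that of KIF24. Among all 35116 windows 16.4% held one, and among the windows of genes tested 12.5% did. The windows of KIF22 overlap, and 1 site counts in both. By gene, 5336 of the 27305 genes with a window held a match. Within 50 bases of the start the shares were 71.4% of mitotic windows, 0 of 11 transport windows, and 5.01% of all windows. CCAAT matches were in 78.6% of mitotic windows, 36.4% of transport windows and 34.6% of all windows. No CHR and CCAAT match shared a base. KIF13B, KIF5A, KIFC2, KIFC3, KIF21B, KIF26B and KIF27 had no entry in the promoter table. These matches are a description of letters.

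**Figure D1:**
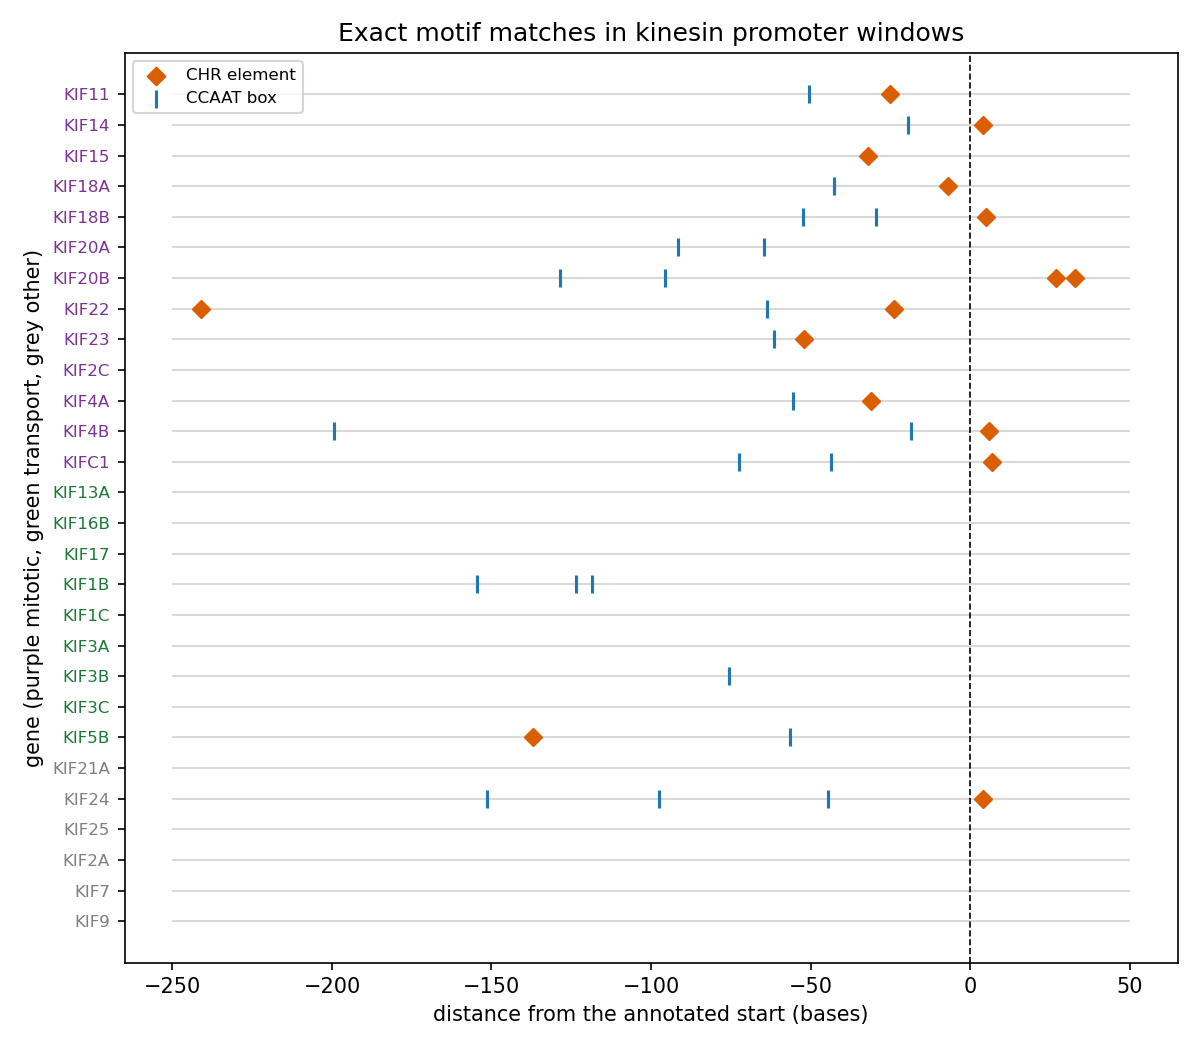
Exact CHR and CCAAT matches in the promoter window of each kinesin gene, drawn by distance in bases from the RefSeq start, with genes down the page by class. Genes with several RefSeq starts have the matches of each window on 1 line, each drawn at its centre and its distance from that window's own start, so the far mark of KIF22 is its near site seen from another start. Other CHR matches of mitotic genes gather near the start, and the transport class holds 1, whose first base is at -140 in KIF5B.

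Mitotic and transport kinesins took opposite shares of the kinesin reads in senescent and proliferating cells. The 13 mitotic genes made up 5.44% ± 0.154 of kinesin counts in senescent cells with doxycycline, 8.98% ± 0.395 in senescent cells without it, 38.4% ± 1.09 in proliferating cells with it and 48.8% ± 0.223 in proliferating cells without it (SD, n = 2 each). The 13 transport genes made up 82.8% ± 1.02, 82.5% ± 0.325, 52.9% ± 1.3 and 43.7% ± 0.197 in the same order of groups. Both classes kept the senescent and proliferating libraries apart, and the transport share overlapped between senescent cells with and without doxycycline. Summed levels show which class carried the difference. The mitotic sum was 58.7 ± 0.668 CPM in senescent cells with doxycycline, 97.9 ± 10.8 without it, 606 ± 25.1 in proliferating cells with it and 855 ± 8.48 without it. The transport sum was 895 ± 26.2, 899 ± 56.2, 837 ± 79 and 766 ± 14.6 CPM in the same order. The other kinesins summed to 127, 92.4, 137 and 130 CPM in that order. No test was run on the shares. In bulk RNA, fewer cycling cells and less mitotic RNA per cell cannot be told apart.

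**Figure D2:**
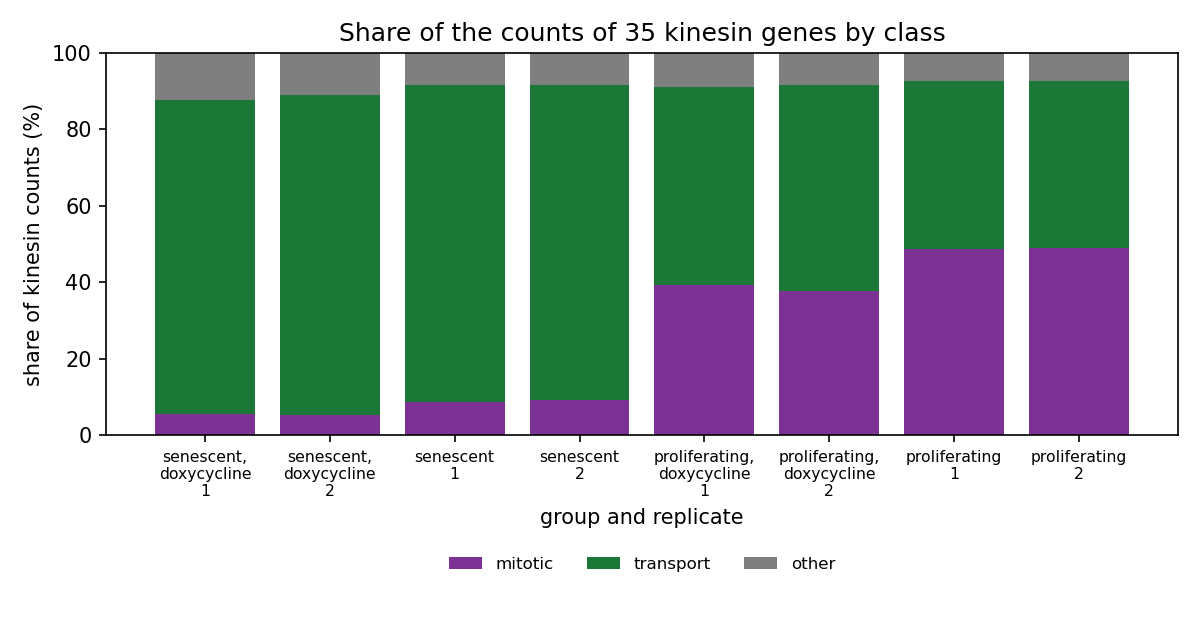
Percent of all kinesin counts taken by mitotic, transport and other kinesins in each of the 8 libraries, by group. Mitotic genes take 5.33 to 9.26% in the senescent libraries and 37.6 to 49% in the proliferating ones.

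Bleomycin-induced senescence lowered nearly every mitotic kinesin. Without doxycycline, senescent against proliferating cells, 12 of 13 fell, 0 rose and 1 did not pass edgeR's quasi-likelihood test at a Benjamini-Hochberg adjusted p of 0.05, over 17155 genes tested, of which 29.4% were called lower. Their median log2 change was -3.24, beside 0.01 over all genes tested. With doxycycline in both states 12 of 13 fell again, beside 28.7% of all genes, with a median of -3.46 beside -0.01. These comparisons do not share libraries. Without KIF4B and KIFC1, a choice made after seeing the data, 11 of 11 fell in each, with medians of -3.24 without doxycycline and -3.48 with it.

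The motors that set up the spindle come first. KIF11 slides antiparallel microtubules apart to separate the poles (chromosome 10, 92593286 to 92655395 in the GENCODE 29 annotation of hg38). It stood at 7.87 and 7.41 CPM in senescent cells with doxycycline, 11.6 and 14.4 in senescent cells without it, 78.8 and 92.2 in proliferating cells with it and 126 and 125 in proliferating cells without it. The 4 groups did not overlap and ran in that order. KIF11 fell 9.69-fold with bleomycin without doxycycline (log2 change -3.28, SE 0.11, adjusted p = 1.4e-12, edgeR) and 11.2-fold with doxycycline (adjusted p = 1.56e-12). KIF15, which backs up KIF11 at the spindle, fell with bleomycin too (log2 change -3.01 without doxycycline and -3.46 with it).

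Motors of chromosomes and spindle microtubule ends fell as a group. KIF22, a chromosome-arm motor, was at 9.37 and 9.15 CPM in senescent cells with doxycycline, 11.5 and 12.4 without it, 71.6 and 69.8 in proliferating cells with it and 95.3 and 94.7 without it. KIF4A, a chromosome motor that also shapes the midzone with PRC1, was at 2.75 and 2.91, 5.68 and 7.24, 43.7 and 42, and 61.1 and 60.9 CPM in the same order. For both genes the 4 groups were apart. Without doxycycline KIF22 fell 7.96-fold and KIF4A 9.46-fold. With doxycycline KIF22 fell 7.63-fold and KIF4A 15.1-fold. KIF18A, which damps chromosome movements at the metaphase plate, fell least of the well-counted members, 5.28-fold without doxycycline (log2 change -2.4) and 6.55-fold with it (log2 change -2.71). KIF18B, which shortens astral microtubules, fell 12.7-fold and 23.4-fold under those comparisons. KIF2C, the depolymerase at centromeres that frees wrong attachments, fell as well (log2 change -3.6 without doxycycline, adjusted p = 3.75e-08, and -4.06 with it). Its senescent libraries without doxycycline were at 5.38 and 9.12 CPM.

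Cytokinesis kinesins included the deepest called fall. KIF20A, which brings the chromosomal passenger complex to the midzone (chromosome 5, 138178719 to 138187715), was at 2.95 and 2.66 CPM in senescent cells with doxycycline, 6.97 and 5.62 without it, 80.2 and 81 in proliferating cells with it and 124 and 118 without it. It fell 19.1-fold without doxycycline (log2 change -4.26, SE 0.106, adjusted p = 7.37e-14, edgeR) and 28.7-fold with it (log2 change -4.84, adjusted p = 2.07e-13). KIF20A was one of 2 mitotic genes with no CHR match in the window searched, and the other, KIF2C, also fell. KIF23, the motor of the centralspindlin complex, was highest of the class in senescent cells, at 16 and 15.6 CPM with doxycycline and 22.6 and 23.7 without it, against 103 and 109 in proliferating cells with it and 140 and 140 without it. It fell 6.06-fold without doxycycline and 6.7-fold with it. KIF14, which holds citron kinase at the midbody, fell 10.5-fold without doxycycline and 20.4-fold with it. KIF20B, another late cytokinesis motor, had log2 changes of -2.57 without doxycycline and -2.85 with it, and fell in both.

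KIF4B and KIFC1 had few counts. KIF4B had 3 counts in senescent cells with doxycycline and 24 in proliferating cells with it, a ratio of 0.125 (95% interval of counting error 0.0241 to 0.412). It passed without doxycycline (log2 change -2.02, adjusted p = 0.0132) and with it (log2 change -2.9, adjusted p = 0.0105). Leaving out proliferating replicate 1 ended the first call (adjusted p = 0.0826), as did leaving out senescent replicate 1 (0.138), and leaving out senescent replicate 2 with doxycycline ended the second (0.095). DESeq2 did not call it lower without doxycycline (adjusted p = 0.0613). Reads of KIF4B may be divided with KIF4A, of which it is a near-identical copy. KIFC1, a minus-end motor that bundles spindle poles, had 3 and 46 counts in senescent cells with doxycycline, 1 and 6 in senescent cells without it, 18 and 36 in proliferating cells with it and 38 and 249 in proliferating cells without it. Its replicates were unlike each other in every group, and it passed in none of the 5 comparisons, although with bleomycin without doxycycline it was called lower by DESeq2 (adjusted p = 0.00434), and by edgeR without robust estimation (0.00283) and without senescent replicate 2 with doxycycline (0.0498).

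**Figure D3:**
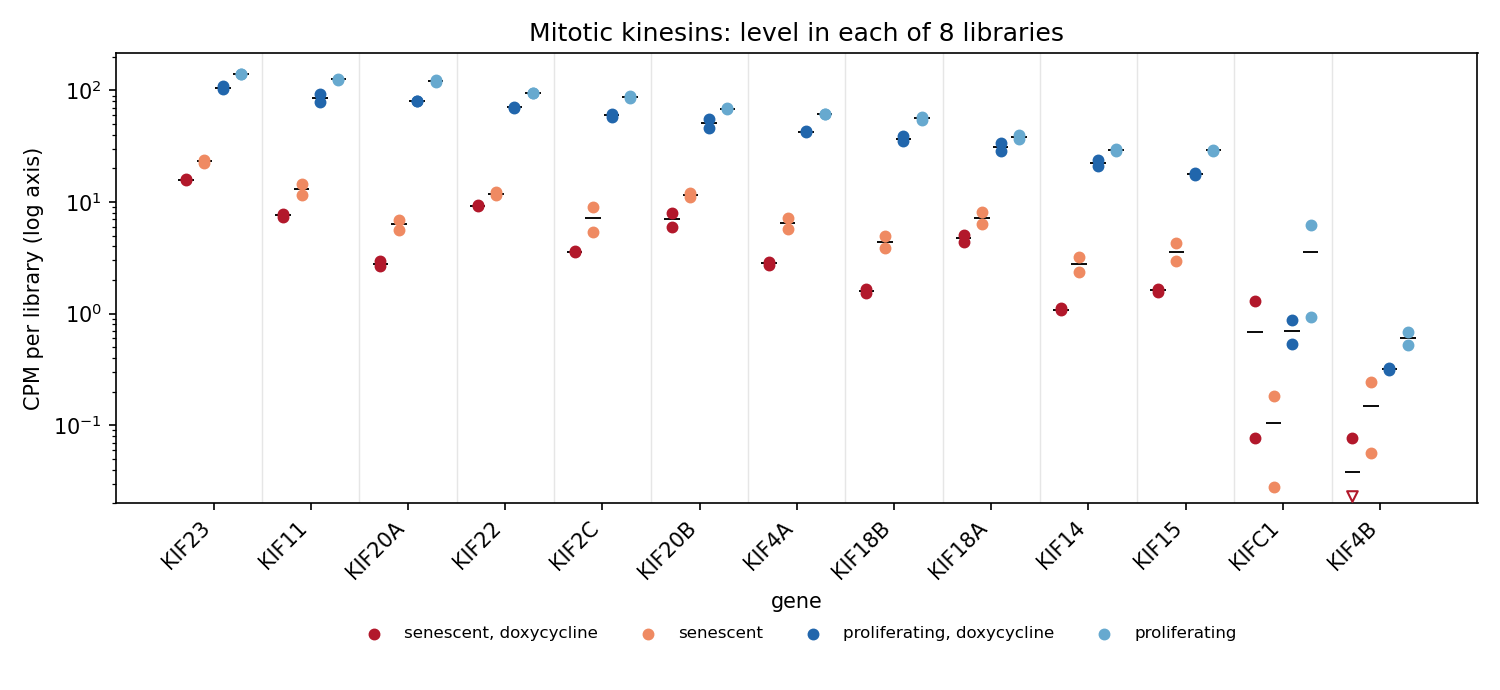
Level of each mitotic kinesin in CPM on a log axis, 1 point per library, groups from senescent with doxycycline at left to proliferating without it at right. Short lines are group means, and an open triangle marks a library with 0 counts. KIF20A runs from 2.66 to 124 CPM, and the replicates of KIFC1 lie far apart.

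Doxycycline lowered mitotic kinesins in both states. Each of these comparisons shares a group with each bleomycin comparison, so a fall or rise under one is not independent of the other. In senescent cells 11 of 13 fell, 0 rose and 2 did not pass, beside 23.8% of all genes called lower, with a median log2 change of -1.01 beside -0.00. In proliferating cells 10 of 13 fell and 0 rose, beside 10.4% of all genes called lower, with a median of -0.54 beside 0.00. All 13 had both doxycycline libraries below both others in proliferating cells, which held for 31.2% of genes tested. Of the 11 genes left without KIF4B and KIFC1, 11 fell in senescent cells and 10 in proliferating cells. The senescent median was -0.60 without senescent replicate 2. Tested against a 1.5-fold change with glmTreat, 5 mitotic genes were called lower in senescent cells and 0 in proliferating cells. The share of all genes called at that threshold is not given here, so these counts cannot be set against the whole table.

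The largest called falls with doxycycline in senescent cells were those of KIF18B and KIF14. KIF18B was at 1.53 and 1.65 CPM in senescent cells with doxycycline, against 3.86 and 4.99 in senescent cells without it, a 2.78-fold fall (log2 change -1.47, SE 0.16, adjusted p = 2.45e-06, edgeR). KIF14 was at 1.07 and 1.12 CPM, against 2.35 and 3.19, a 2.52-fold fall (log2 change -1.33, adjusted p = 3e-05). KIF4A fell 2.28-fold and KIF20A 2.24-fold in the same comparison. KIF15 (log2 change -1.15) and KIF2C (-1.01) followed. KIF11 fell 1.7-fold, KIF23 1.46-fold and KIF22 1.29-fold (log2 change -0.37, adjusted p = 0.00431). The call of KIF22 was lost when libraries were scaled by total counts alone (log2 change -0.20, adjusted p = 0.112). That of KIF18A (log2 change -0.61, adjusted p = 0.00262) was lost without senescent replicate 1 with doxycycline (0.0529).

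In proliferating cells the largest called fall was that of KIF15. It was at 17.5 and 18.1 CPM in proliferating cells with doxycycline, against 29.2 and 28.7 without it (log2 change -0.7, SE 0.121, adjusted p = 0.00054, edgeR). KIF18B fell 1.51-fold, KIF20A 1.5-fold, KIF11 1.47-fold and KIF4A 1.43-fold, and KIF22 and KIF23 fell 1.34-fold and 1.32-fold. KIF18A had a log2 change of -0.29 and did not pass (adjusted p = 0.0742), but passed without proliferating replicate 2 with doxycycline (-0.42, adjusted p = 0.0273). Calls of 3 genes were less firm. KIF14 (log2 change -0.37, adjusted p = 0.0263) was lost without proliferating replicate 1 (0.123) or 2 (0.206) or doxycycline replicate 1 (0.173). KIF20B (-0.44, 0.00857) was lost without the same libraries (0.0633, 0.0565 and 0.0757). KIF2C (-0.54, 0.0264) was lost without either proliferating library (0.163 and 0.105), either proliferating library with doxycycline (0.135 and 0.154) or either senescent library with doxycycline (0.0508 and 0.054).

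The difference between the doxycycline effect in senescent cells and that in proliferating cells was tested directly as an interaction. It was called lower for 4 of 13 mitotic kinesins, KIF14, KIF18B, KIF20A and KIF4A, and higher for 0, beside 11.8% and 8.08% of all genes (19.9% in either direction). KIF18B fell more in senescent cells than in proliferating ones (interaction -0.87 on the log2 scale, SE 0.19, adjusted p = 0.00447, edgeR). KIF11 (-0.21, adjusted p = 0.373), KIF23 (-0.15, 0.392) and KIF22 (0.06, 0.771) did not pass. Without senescent replicate 1 with doxycycline 2 of the 4 calls were left, KIF14 going to an adjusted p of 0.0502 and KIF4A to 0.0648. KIF20A was lost without proliferating replicate 2 (0.069), senescent replicate 1 (0.0833) and senescent replicate 2 with doxycycline (0.0884). With total counts KIF20A (-0.40, adjusted p = 0.0824) and KIF4A (-0.50, 0.05) were lost. The class median, -0.45, was -0.15 without senescent replicate 2.

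**Figure D4:**
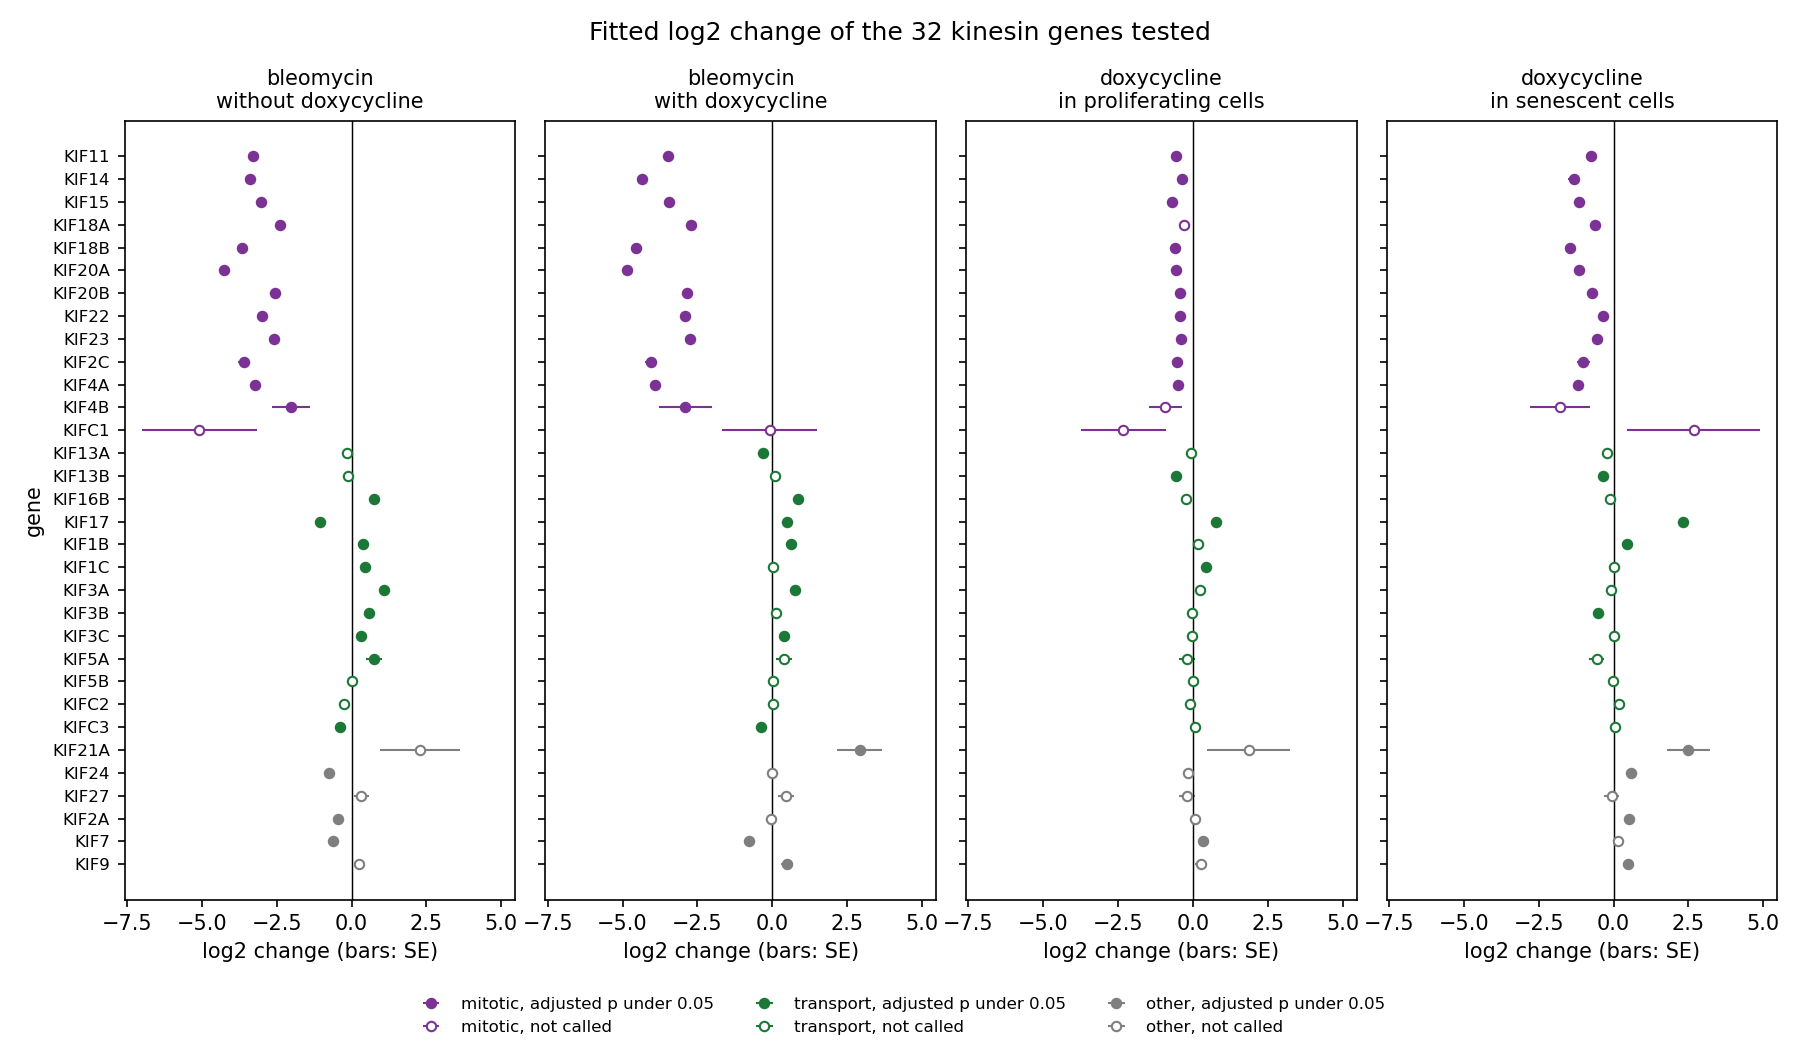
Log2 change of each tested kinesin with its SE in 4 comparisons, 1 panel each, with filled points where the adjusted p is under 0.05 and genes down the page by class. Mitotic genes lie left of 0 in the bleomycin panels, and KIF17 stands right of the other transport genes in senescent cells with doxycycline, at 2.31.

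Transport kinesins moved in both directions and by less. With bleomycin and no doxycycline 7 of 13 rose, 2 fell and 4 did not pass, beside 29.8% of all genes higher and 29.4% lower, with a median log2 change of 0.33 beside 0.01. With bleomycin in cells on doxycycline 5 rose and 2 fell, beside 26.8% and 28.7%, with a median of 0.12 beside -0.01. Scaled by total counts alone, which shifts the median of all genes by -0.18 without doxycycline, 4 rose and 4 fell in the first comparison. Without senescent replicate 2 the number that fell there was 4, with a median of 0.19. Against a 1.5-fold change 1 rose and 1 fell in the first comparison, and 1 rose and 0 fell in the second. The share of all genes at that threshold is not given.

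The transport kinesin highest per kilobase of exon hardly moved. By counts summed over all libraries KIF1C stood above it (77965 against 68363 for KIF5B). KIF5B, the heavy chain of conventional kinesin (chromosome 10, 32009010 to 32056431), was at 224 and 232 CPM in senescent cells with doxycycline, 218 and 244 in senescent cells without it, 215 and 238 in proliferating cells with it and 228 and 225 in proliferating cells without it. The groups overlapped throughout. Its log2 changes were 0.03 and 0.01 with bleomycin (without and with doxycycline) and -0.00 and -0.02 with doxycycline (in proliferating and in senescent cells), each with an SE of 0.0836 or 0.0837 and adjusted p from 0.803 to 0.996. Scaled by total counts it had a log2 change of -0.15 with bleomycin without doxycycline, with an adjusted p of 0.151. Per kilobase of exon it was the highest kinesin in every group, at 38.8, 39.3, 38.5 and 38.6 CPM per kb in senescent cells with and without doxycycline and proliferating cells with and without it. KIF1C, a motor of dense-core vesicles and of Golgi traffic, was next in 3 groups, at 32.8, 32.6 and 32.3 CPM per kb, and at 24.1 in proliferating cells without doxycycline, where KIF20A (30.5) and KIF11 (25.9) stood above it and KIF2C (24) beside it. KIF5A, a mostly neuronal heavy chain, was at 2.32 and 1.59 CPM in senescent cells with doxycycline, 2.49 and 3.34 without it, 1.29 and 1.7 in proliferating cells with it and 1.83 and 1.65 without it. Its call with bleomycin without doxycycline (log2 change 0.74, adjusted p = 0.0225) was lost without either proliferating library (0.0653 and 0.122) or senescent replicate 2 (0.191), and with total counts (0.0809).

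The heterotrimeric motor of cilia and post-Golgi vesicles is formed by KIF3A and KIF3B with the adaptor KIFAP3. KIF3A was at 30.1 and 29.8 CPM in senescent cells with doxycycline, 30.3 and 33.4 without it, 15.6 and 19.5 in proliferating cells with it and 15.9 and 13.9 without it. Senescent libraries lay above all proliferating ones, and KIF3A rose 2.14-fold without doxycycline (log2 change 1.09, SE 0.113, adjusted p = 5.77e-07, edgeR) and 1.7-fold with it (adjusted p = 2.79e-05). KIF3B, its partner, was at 59.9 and 60.3 CPM in senescent cells with doxycycline, 80 and 91 without it, 54.3 and 56.5 in proliferating cells with it and 59 and 55 without it. Senescent cells without doxycycline were highest, and those with it lay just above all proliferating libraries. It rose 1.5-fold with bleomycin without doxycycline (adjusted p = 1.81e-05) and fell with doxycycline in senescent cells (log2 change -0.51, adjusted p = 0.000133). Its interaction (-0.47, adjusted p = 0.0112) was lost without proliferating replicate 2 (0.0862) and without senescent replicate 1 with doxycycline (0.0585), and with total counts (-0.29, adjusted p = 0.12). KIFAP3 rose with bleomycin by log2 0.35 without doxycycline and 0.44 with it. KIF3C, which pairs with KIF3A in nerve tissue, rose by 0.33 without doxycycline (adjusted p = 0.00365) and 0.38 with it (0.00166), and the first call was lost without proliferating replicate 1 (0.0576) and with total counts (0.164).

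Vesicle and endosome motors are the rest of the class. KIF16B, an early endosome motor, was at 21.5 and 20.4 CPM in senescent cells with doxycycline, 21.6 and 23.6 without it, 10.9 and 12 in proliferating cells with it and 13.8 and 13.2 without it. It rose 1.67-fold with bleomycin without doxycycline (adjusted p = 9.38e-06) and 1.83-fold with it. KIF1B, a motor of mitochondria and synaptic vesicle precursors, was at 104 and 101 CPM in senescent cells with doxycycline, 66.6 and 84.8 without it, 65.2 and 66.4 in proliferating cells with it and 57.9 and 58.7 without it. It rose with bleomycin by log2 0.38 without doxycycline and 0.64 with it, and with doxycycline in senescent cells by 0.43 (adjusted p = 0.0017). Without senescent replicate 2 the first of these was 0.19 (adjusted p = 0.0743), and with total counts 0.20 (0.109).

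KIF1C rose with bleomycin without doxycycline (log2 change 0.44, adjusted p = 0.00151) and with doxycycline in proliferating cells (0.42, 0.0063). The second call was lost without proliferating replicate 2 (0.0816) and without proliferating replicate 2 with doxycycline (0.0547). The antisense gene KIF1C-AS1 had 5.31% as many counts as KIF1C, and whether counting used strand is not given in the sources used here. KIFC3, a minus-end motor of cell junctions and Golgi, fell with bleomycin without doxycycline (log2 change -0.38, adjusted p = 0.000763) and with it (-0.39, 0.000666). KIF13A, which moves recycling endosomes, fell with bleomycin on doxycycline by 0.32 (adjusted p = 0.00502). KIF13B fell with doxycycline in proliferating cells (-0.58, adjusted p = 0.00767), a call lost without proliferating replicate 1 (0.0603) and doxycycline replicate 1 (0.0885). In senescent cells its log2 change was -0.36 (adjusted p = 0.0486), and the call was lost under 14 of the alternatives tried, among them each of 7 libraries left out, with adjusted p of 0.0506 to 0.593. KIFC2, which shares 791 exon bases with FOXH1 on the other strand, passed in none of the 5 comparisons. With bleomycin without doxycycline its log2 change was -0.26 (adjusted p = 0.116), and it passed there without either proliferating library with doxycycline (0.044 and 0.0461) and with total counts (-0.43, adjusted p = 0.0157). Its interaction (0.28, adjusted p = 0.336) passed without proliferating replicate 2 with doxycycline (0.52, 0.0447).

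**Figure D5:**
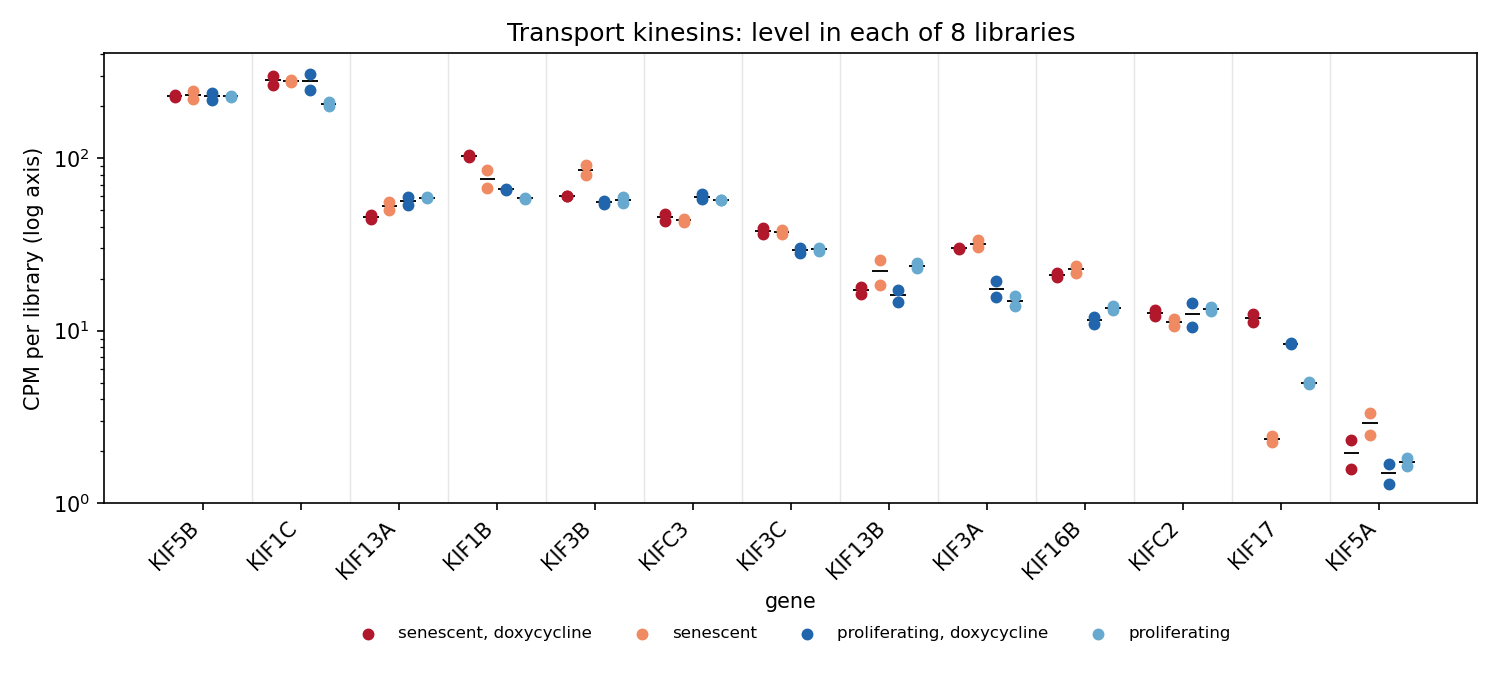
Level of each transport kinesin in CPM on a log axis, 1 point per library with short lines at group means, groups ordered from senescent with doxycycline to proliferating without it. KIF5B is level between 215 and 244 CPM, and KIF17 ranges from 2.27 to 12.4 CPM.

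KIF17 had the largest doxycycline response of the family among well-counted genes. KIF17, a homodimeric motor known for dendritic and ciliary cargo (chromosome 1, 20664014 to 20718017), was at 11.2 and 12.4 CPM in senescent cells with doxycycline, 2.27 and 2.46 in senescent cells without it, 8.47 and 8.37 in proliferating cells with it and 5.05 and 4.91 in proliferating cells without it. The 4 groups did not overlap. It rose 4.97-fold with doxycycline in senescent cells (log2 change 2.31, SE 0.145, adjusted p = 5.9e-09, edgeR) and 1.69-fold in proliferating cells (log2 change 0.76, adjusted p = 0.0007), and these effects differed (interaction 1.56, SE 0.197, adjusted p = 7.19e-05). Bleomycin lowered it without doxycycline (log2 change -1.07, adjusted p = 1.38e-05) and raised it with doxycycline (0.48, adjusted p = 0.00513). The last call was lost without senescent replicate 2 with doxycycline (log2 change 0.40, adjusted p = 0.0618). Neuronal markers summed to 38.3 to 43.7 CPM in senescent cells with doxycycline, 46 to 51 without it, 65.6 to 72.1 in proliferating cells with it and 92.9 to 94.2 without it. Of 10 such markers 2 or 3 reached 1 CPM, most of it TUBB3, and NEFM was at 0 in every library. The markers went different ways. Mean SYT1 was higher with doxycycline, at 1.72 against 0.858 CPM in senescent cells and 1.51 against 0.604 in proliferating cells. Mean MAP2 was lower with it, at 1.29 against 4.51 and 0.181 against 2.71 in the same order. Their part in the KIF17 result was not tested. Over the transport class, doxycycline raised 2 and lowered 2 of 13 in senescent cells, beside 22.6% and 23.8% of all genes, and raised 2 and lowered 1 in proliferating cells, beside 12.6% and 10.4%.

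The kinesins of other or mixed role had no single order of groups. Of the 6 tested, 0 rose and 3 fell with bleomycin without doxycycline, beside 29.8% of all genes higher and 29.4% lower. With bleomycin in cells on doxycycline 2 rose and 1 fell, beside 26.8% and 28.7%. With doxycycline 4 rose and 0 fell in senescent cells, beside 22.6% of all genes higher, and 1 rose and 0 fell in proliferating cells, beside 12.6%. The 4, and the 2 that rose with bleomycin on doxycycline, include KIF21A, which passed the low-count filter only through senescent cells with doxycycline. KIF2A, a depolymerase of spindle poles and of neurites, was at 82.1 and 78 CPM in senescent cells with doxycycline, 53 and 60.5 without it, 80.9 and 83.4 in proliferating cells with it and 78.4 and 78.5 without it. KIF24, a centriole depolymerase that restrains cilia, was at 24.9 and 21 CPM, 15.7 and 15.1, 23.1 and 23.4, and 26.7 and 24.8 in the same order. For both, senescent cells without doxycycline were below the other 3 groups, which lay close together. The fall with bleomycin and the rise with doxycycline below share those 2 libraries. KIF24 fell with bleomycin without doxycycline (log2 change -0.74, adjusted p = 1.14e-05), rose with doxycycline in senescent cells (0.58, 0.000265) and had a called interaction of 0.73 (adjusted p = 0.00216). KIF2A fell by 0.47 with bleomycin (adjusted p = 0.000139) and rose by 0.5 with doxycycline in senescent cells (0.000143). Its interaction (0.43, adjusted p = 0.0155) was lost without either proliferating library (0.0787 and 0.0853), senescent replicate 1 (0.0679) and senescent replicate 1 with doxycycline (0.0748). KIF2A shares 428 exon bases with IPO11 on the same strand, and KIF24 shares 143 with UBAP1 on the other strand.

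KIF7, a ciliary regulator of Hedgehog signalling, was at 15.4 and 14.9 CPM in senescent cells with doxycycline, 13.3 and 13.9 without it, 22.9 and 28.8 in proliferating cells with it and 21.2 and 20.2 without it. It fell with bleomycin without doxycycline (log2 change -0.61, adjusted p = 0.00021) and with it (-0.77, adjusted p = 2.05e-05). Its call with doxycycline in proliferating cells (0.32, adjusted p = 0.0392) was lost without 5 of the 8 libraries, both proliferating ones (0.138 and 0.239), proliferating replicate 2 with doxycycline (0.332) and both senescent ones with doxycycline (0.0606 and 0.061). KIF7 shares 589 exon bases with TICRR on the other strand. KIF9, a ciliary motor, shares 178 exon bases with KLHL18 on the other strand, which had 8646 counts against 1174 for KIF9. KIF9 had log2 changes of 0.48 with bleomycin on doxycycline (adjusted p = 0.0282) and 0.48 with doxycycline in senescent cells (0.035). Leaving out 1 library took those p to as high as 0.162 and 0.187, each without senescent replicate 1 with doxycycline, and the antisense gene KIF9-AS1 had 54.3% as many counts. KIF21A, a motor that quiets microtubule growth at the cortex, had 15 and 17 counts in senescent cells with doxycycline, 3 and 2 in senescent cells without it, 3 and 1 in proliferating cells with it and 1 and 0 in proliferating cells without it. It passed the low-count filter only through senescent cells with doxycycline, so calls of it as higher there are not independent of the filter. It was called higher in senescent cells with doxycycline against those without it (log2 change 2.5, adjusted p = 0.0111), a call lost without either senescent library (0.056 and 0.0794) and senescent replicate 2 with doxycycline (0.0824). Against proliferating cells with doxycycline it was also called higher (2.92, adjusted p = 0.00406), which was lost without proliferating replicate 2 with doxycycline (0.0632). KIF27 passed in none of the 5 comparisons, and KIF21B, KIF25 and KIF26B, with 11, 32 and 12 counts over all libraries, were below the filter and not tested.

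Most transcripts of proteins that work with mitotic kinesins moved with them. Of 20 spindle and midzone partners, 18 fell and 1 rose with bleomycin without doxycycline (29.4% of all genes lower, 29.8% higher), and 19 fell and 1 rose with it (28.7% lower, 26.8% higher), with medians of -3.03 and -3.45. PLK1, the mitotic kinase that docks on KIF20A, fell furthest of the list (log2 change -4.36 without doxycycline and -5.12 with it). CENPE, a kinetochore kinesin whose symbol lies outside the KIF pattern, fell too (-2.27 without doxycycline and -2.67 with it). CLASP1, a microtubule plus-end rescue factor, was the member that rose, by 0.46 without doxycycline and 0.28 with it. With doxycycline 16 of the 20 fell and 0 rose in senescent cells, beside 23.8% of all genes lower, and 16 fell and 0 rose in proliferating cells, beside 10.4%. CCNB1 had log2 changes of -0.24 in senescent cells (adjusted p = 0.0906) and -0.24 in proliferating cells (0.0862). Of 15 cell cycle transcription factors and pocket proteins, 12 fell and 1 rose with bleomycin without doxycycline, beside the same 29.4% lower and 29.8% higher, and 12 fell and 2 rose with it, beside 28.7% and 26.8%. E2F2 (log2 change -3.70 without doxycycline and -3.75 with it) and E2F8 (-3.34 and -4.02), factors of the E2F family, were among the deepest falls. FOXM1 fell (log2 change -3.61 without doxycycline and -4.19 with it), as did MYBL2, which encodes B-MYB (-3.1 and -3.35). RBL2, a pocket protein of DREAM, rose by 0.79 without doxycycline and 0.68 with it. Most other listed genes of DREAM had lower mean CPM in senescent than in proliferating cells, both without doxycycline. These were RBL1 (8.99 against 38), LIN9 (3.48 against 12.5), LIN52 (10.2 against 22.6), LIN54 (14.7 against 31.9), E2F4 (62.3 against 80.3) and TFDP1 (123 against 182). LIN37 was at 13 against 11.8. With doxycycline 8 of the 15 fell in senescent cells, beside 23.8% of all genes, and 6 in proliferating cells, beside 10.4%, and 0 rose in either.

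Cargo adaptors and the opposing motor dynein were described in the same way for the transport class. Of 22 tested kinesin light chains, adaptors and cargo regulators, 14 rose and 2 fell with bleomycin without doxycycline (29.8% of all genes higher, 29.4% lower), with a median log2 change of 0.46, and 10 rose and 2 fell with it (26.8% higher, 28.7% lower), with a median of 0.18. MAPK8IP2, a JNK scaffold that binds kinesin light chains, had the largest rise, log2 2.01 without doxycycline and 2.27 with it, at no more than 1.59 CPM in any library. With doxycycline 3 rose and 8 fell in senescent cells, beside 22.6% of all genes higher and 23.8% lower, and 4 rose and 1 fell in proliferating cells, beside 12.6% and 10.4%. The list also holds STARD9, itself a kinesin outside the KIF pattern, which was 1 of the 8 that fell in senescent cells (log2 change -0.72). FYCO1, an adaptor of late endosomes and autophagosomes, was at 53.4 and 52.3 CPM in senescent cells with doxycycline, 95.9 and 102 without it, 42 and 48 in proliferating cells with it and 57.1 and 61 without it. It rose with bleomycin without doxycycline (log2 change 0.75) and fell with doxycycline in senescent cells (-0.91, adjusted p = 4.51e-07) more than in proliferating cells (-0.39; interaction -0.51, adjusted p = 0.00679). KLC1, a light chain of KIF5B, rose by 0.5 with bleomycin without doxycycline, while RHOT2, a mitochondrial docking protein for kinesin, fell (-0.82 without doxycycline and -0.74 with it). Of 22 tested dynein and dynactin genes, 9 rose and 1 fell with bleomycin without doxycycline, beside 29.8% of all genes higher and 29.4% lower. With doxycycline 5 rose and 5 fell with bleomycin, 22.7% of the list each way, beside 26.8% higher and 28.7% lower over all genes. DYNC1LI2, a dynein light intermediate chain, was at 172 and 194 CPM in senescent cells with doxycycline, 270 and 266 without it, 135 and 145 in proliferating cells with it and 124 and 122 without it. It rose with bleomycin by log2 1.12 without doxycycline and 0.39 with it, and fell with doxycycline in senescent cells (-0.55). DCTN3, a dynactin subunit, fell with bleomycin (-0.9 without doxycycline and -0.76 with it).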

How the data were processed

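Messenger RNA was measured in 8 libraries, and the values are raw read counts per gene as the authors deposited them. RNA was extracted with acid phenol and libraries were made with a stranded TruSeq mRNA kit, per the labels' protocols. Tools listed per the submitters' processing notes are featureCounts 1.6.3, HISAT2 2.1.0 and Trimmomatic 0.36, with hg38 as the build. The sources used here do not give the annotation, the strand option or the multi-mapping rule.

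Libraries were grouped by their labelled state and treatment. Genes passing filterByExpr (17155, among them 32 of the 35 kinesins) entered the robust quasi-likelihood fit of edgeR 4.0.16 (R 4.3.3) with TMM scaling over all 8 libraries, with 4 residual degrees of freedom and a common biological coefficient of variation of 0.0904. The 5 contrasts were tested two-sided with Benjamini-Hochberg adjustment over all genes tested at 0.05. CPM use the TMM factors. Exon lengths, gene positions and overlaps are from GENCODE 29. Not every overlap is named above. On the other strand KIF20A shares 132 exon bases with BRD8 and 68 with CDC23, KIF4A 77 with PDZD11 and KIF18A 61 with METTL15. Intervals cover counting error only, and those depths set the precision of low genes.

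The members, classes and related lists were chosen with earlier results of these data known. Every kinesin could be named. Any member of a related list could be named, by default up to 3 past the threshold with the largest changes per list and comparison, plus CENPE, KIFAP3 and KLC1. Not all of these are printed, and CLASP1, CCNB1, RBL2 and MYBL2 were picked after their values were seen. So were RBL1, E2F4, TFDP1 and the LIN genes. Alternatives were other size factors, total counts, limma-voom (limma 3.58.1), DESeq2 1.42.0, other filters, fewer libraries, replicate blocks, a 1.5-fold threshold (glmTreat), no robust estimation, broader classes and each library left out. The main fit did not pair libraries across groups by replicate number. The fits were tested on simulated data. Protein sequences were not analysed here.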

Additional observations from a re-analysis of the deposited data

Results flagged for a closer look

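The effect of doxycycline differed between senescent and proliferating cells for 8 of the 32 kinesins tested, by edgeR's test of the interaction. Benjamini-Hochberg adjustment was over all 17155 genes tested. Of the 32 kinesins 9.38% were called higher and 15.6% lower, beside 8.08% and 11.8% of all genes (19.9% in either direction). The differences, senescent minus proliferating on the log2 scale, were -0.96 for KIF14 (adjusted p = 0.00608), -0.87 for KIF18B (0.00447), -0.68 for KIF4A (0.00892), -0.58 for KIF20A (0.0157) and -0.47 for KIF3B (0.0112). They were 1.56 for KIF17 (7.19e-05), 0.73 for KIF24 (0.00216) and 0.43 for KIF2A (0.0155). The 4 mitotic genes fell with doxycycline in both states. KIF17 rose in both states. KIF3B, KIF24 and KIF2A were called with doxycycline in senescent cells and had log2 changes of -0.04, -0.15 and 0.07 in proliferating cells. KIF17, KIF18B and KIF24 kept their call whichever library was left out.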

How the results depend on the processing

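Of 87 called kinesin results, 32 kept their call under every alternative. Over 1640 such results under alternatives 1495 stayed called, 145 lost the call and 0 changed sign. Of 1344 uncalled ones, 42 became called and 89 changed sign with no call in either fit. The causes were not tested. The counts and medians below are of called genes and log2 changes per class, and all others stayed within 1.5 times or within the replicate spread. Shares of all genes called are not given for the alternatives.

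Against a 1.5-fold change, mitotic genes called lower were 0 with doxycycline in proliferating cells, 5 in senescent cells and 0 for the interaction. Transport genes higher and lower were then 1 and 1 with bleomycin without doxycycline, 1 and 0 with it, 0 and 0 with doxycycline in proliferating cells, 1 and 0 in senescent cells, and lower 0 for the interaction. With total counts, transport genes with bleomycin without doxycycline were 4 higher and 4 lower (median 0.16), with doxycycline in senescent cells 1 lower (median 0.15), and for the interaction 2 higher and 0 lower (median 0.17), with 2 mitotic genes lower. Transport genes lower with doxycycline in senescent cells were 1 under DESeq2, limma-voom, no robust estimation, a fit of only the 4 libraries compared and a stricter filter (mean log2 CPM of 1 or more). The stricter filter gave transport medians of 0.21 with bleomycin without doxycycline and 0.04 with doxycycline in senescent cells. Transport genes lower for the interaction were 2 under DESeq2 and with no low-count filter. Without robust estimation 1 mitotic gene, KIFC1, was higher for the interaction. With broad classes 2 mitotic genes were higher with doxycycline in senescent cells (median -0.76) and 2 for the interaction, and the medians with bleomycin were -3.01 without doxycycline and -2.93 with it.

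Libraries with the same title number had residual correlations of -0.0121 to 0.159 over all genes tested. Such a correlation cannot exclude a shared replicate effect on single genes. KIFC1 had more counts in replicate 2 than in replicate 1 of every group. With the title's number as a replicate block, KIFC1 was called lower with bleomycin without doxycycline (adjusted p = 6.33e-05), and it made 1 mitotic gene higher with doxycycline in senescent cells and 1 for the interaction, and 2 transport genes were lower for the interaction. The block on the description's number gave the same 1, 1 and 2, called KIFC1 lower with bleomycin without doxycycline (0.000191) and lost KIF4B there (0.0956), with 0 transport genes lower with doxycycline in proliferating cells and a mitotic median there of -0.46.

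With 1 library left out, transport genes with bleomycin without doxycycline were 2 to 4 lower with medians of 0.19 to 0.36. The mitotic median with bleomycin on doxycycline was -3.52 to -3.37. With doxycycline in proliferating cells 1 to 3 transport genes were higher and 0 to 1 lower, with medians of -0.08 to 0.08. In senescent cells 1 to 3 were lower, with medians of -0.10 to -0.02, and the mitotic median was -1.01 to -0.60. For the interaction 2 to 5 mitotic genes were lower (medians -0.48 to -0.15), and 1 to 2 transport genes higher and 0 to 3 lower. Low counts limit KIF4B and KIF21A.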
